A study of Mus musculus with 2 samples.

Results

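The mouse miRNAs with the highest catalogue numbers, those named mmu-miR-4000 or above, were examined in knee joint cartilage on 2 one-colour Agilent miRNA arrays. Of the 1247 mouse miRNAs with probes on the arrays, 177 carried such a number in both scanner files and in the deposited value table, and the lowest number among them was that of miR-5046. The members were taken by name alone, but the grouping itself was chosen by the signal differences between these 2 arrays, which were already known. The differences of its members are therefore a description with no test. One array held a control sample, with the genotype label wildtype, and the other a sample labelled Col2a1Tsc1KO, with the genotype label Col2a1; Tsc1 KO. Both came from the articular cartilage of male mice aged 8 weeks. The series describes the knockout as a deletion of Tsc1 directed through Col2a1, the gene of the cartilage collagen, and was designed to follow miRNAs under mTORC1, the growth kinase complex that Tsc1 restrains. Neither the number of mice behind each sample nor the cells that lost Tsc1 is stated in the sources at hand. Both arrays lay on 1 slide, so position and genotype cannot be told apart. With 1 array a group there was no replicate check of any difference below, and each error below is the standard error over repeated spots.

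A miRNA is cut from a hairpin transcript, loaded into an Argonaute protein and guided to mRNAs chiefly by its seed, bases 2 to 8 from its 5′ end. Catalogue numbers are given in order of discovery. The miRNAs shared by vertebrates, with high levels in many tissues, were found early, whereas most late numbers come from deep sequencing and often stand for RNAs of low abundance in few cell types. Some late entries have since been judged to be fragments of other RNAs, so a late number by itself says little of function. None of the members is in the lists of cell type markers used here, and roles are left out where they are not well established.

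RefSeq (GRCm38.p6) held the mature sequence of 145 of the 177 members. The sequences below are those of the 3 members with a RefSeq sequence whose signal fell short of the control by 2-fold or more in the knockout sample, the 2 with more signal in that sample, and 3 further members described in the text. They are written 5′ to 3′ with the seed in capitals.
miR-6392-3p: gACGCAGGuuugccggguccucu
miR-6401: uUACACUCcaguggugucgggu
miR-5121: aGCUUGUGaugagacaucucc
miR-5100: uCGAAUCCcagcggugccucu
miR-5113: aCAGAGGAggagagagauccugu
miR-6366: aGCUAAGGggcccggggagcca
miR-5126: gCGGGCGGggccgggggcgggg
miR-5128: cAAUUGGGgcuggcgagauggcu
None of these 8 shares its seed with another mouse miRNA in RefSeq. For 12 measured members RefSeq gave no mature sequence, namely miR-5097, miR-5099, miR-5105, miR-5107-5p, miR-5109, miR-5112, miR-5115, miR-5117-3p, miR-5117-5p, miR-6243, miR-6360 and miR-6378. For miR-5115, the lowest of all members, the array's own probe that was measured on both arrays is shown, complementary to its target.
miR-5115 probe: gggcccagctcg

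Most late-numbered miRNAs, like most other miRNAs on the arrays, gave no signal well above background in this cartilage. A probe counted as well above background where the scanner software marked more than 50% of its usable spots so, and a miRNA where at least 1 of its probes did. By this rule 34 of the 177 members were well above background in the control and 34 in the knockout sample, and 33 were so on both, or 18.6% of the members against 20.6% of all miRNAs. On neither array were 142 of the 177 members well above background, and the same held for 785 of the 1070 other miRNAs. For 135 of the 142 members not a single spot was marked. The 7 others had at most 47.4% of the spots of a probe marked on either array, the highest share being that of miR-6402 on the knockout array. Such members are not shown to be absent, since the rule only states that their signal could not be told from background.

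The measured share differed between blocks of numbers. Of the 45 members numbered from 5000 to below 5200, 18 were measured on both arrays, or 40%. Of the 28 members from 5200 to below 6000, all of them catalogued as miR-5615 to miR-5710, only miR-5622-3p was. Of the 8 from 6000 to below 6300, 3 were measured (miR-6236, miR-6238 and miR-6243), and of the 89 from 6300 to below 6500, 10 were, or 11.2%. Among the 7 with higher numbers miR-6538 was the only one measured.

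**Figure D1:**
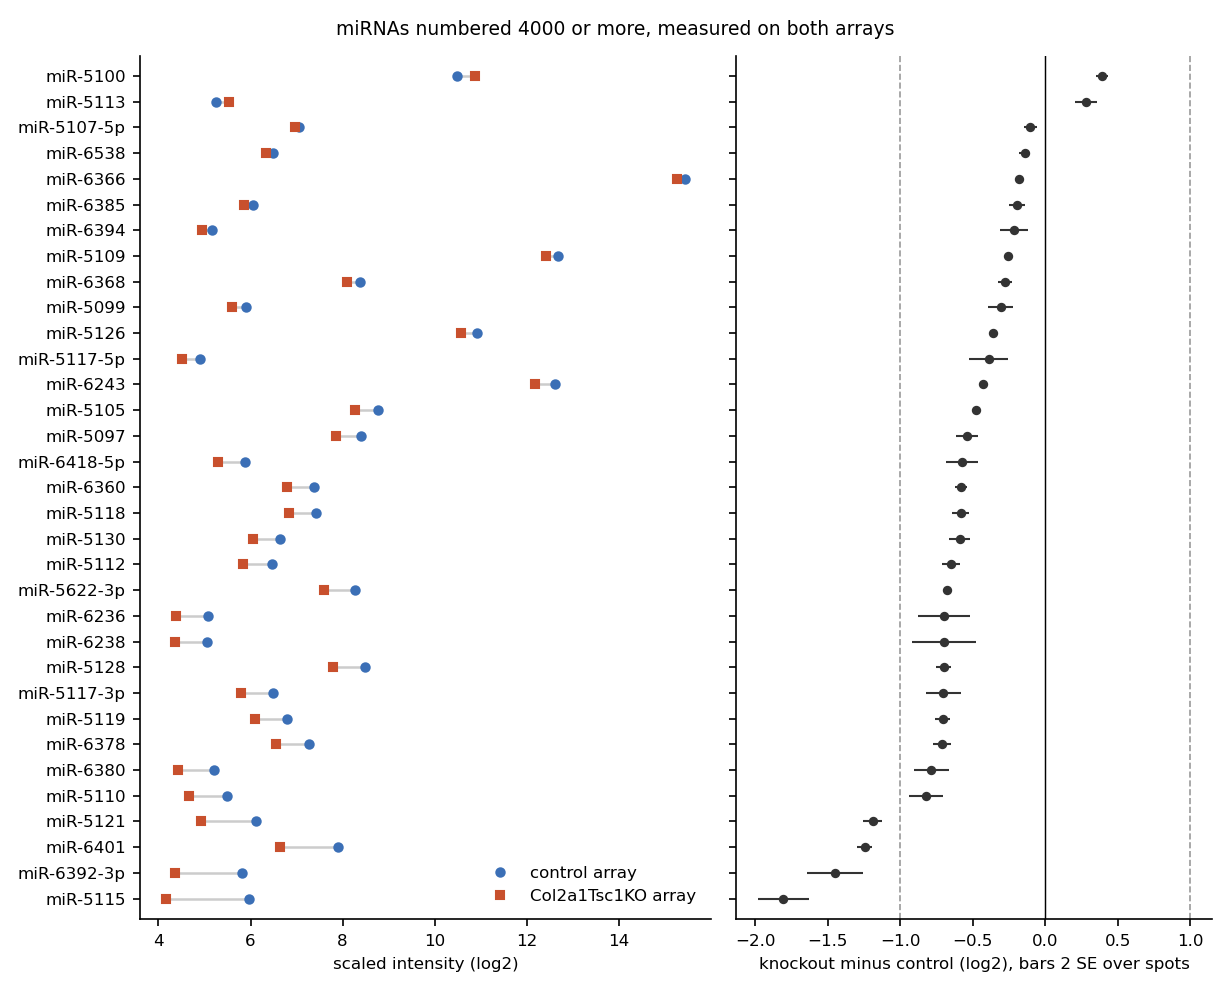
Scaled intensity (log2) of the 33 late-numbered miRNAs measured on both arrays, with circles for the control and squares for the Col2a1Tsc1KO array (left), and the difference with bars of 2 standard errors over spots (right), ordered by difference. The dashed lines mark a 2-fold difference; miR-5115, miR-6392-3p, miR-6401 and miR-5121 lie past the lower one, no member lies past the upper one, and 31 of 33 lie below 0.

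Late-numbered miRNAs mostly had less signal in the knockout sample, within a narrow band, though the number that did depended on the scaling. Both arrays were brought to a common 75th percentile, taken over 476 probes that were well above background on both. This moved the knockout array by 0.41 on the log2 scale relative to the control. After this step 31 of the 33 measured members had less signal in the knockout sample, or 93.9%, against 59.1% of all 257 measured miRNAs. The share was 81.8% among measured miRNAs numbered from 700 to below 2000 and 75% among those from 2000 to below 4000. With no scaling 21 of the 33 members had less signal in the knockout sample, with spike-in scaling 22, and 20 when the 75th percentile was taken over all probes. No member was 2-fold or more higher in the knockout sample, against 15.6% of all measured miRNAs. At least 2-fold lower were 4 of 33, or 12.1%, against 17.5% of all measured miRNAs. Over all 257 miRNAs the split was 40 higher and 45 lower, and with no scaling it was 59 and 13. The members' median log2 difference, knockout minus control, was -0.58, and that of the other 224 measured miRNAs was -0.10. With no scaling these were -0.17 and 0.31, with spike-in scaling -0.22 and 0.26, and with the percentile taken over all probes -0.15 and 0.33. The distance between both medians, -0.48, cannot move when a constant is added to every difference. Among alternatives that can move it, it was -0.49 with quantile normalization and -0.27 after normexp background correction followed by quantile normalization (normexp for short). It was -0.35 in the deposited log2 values and 0 with dim probes kept at a floor. The middle 50% of the members spanned 0.43 on the log2 scale, from -0.70 to -0.28, and that of the other miRNAs spanned 1.47. Those others pool ranges with unlike medians. The middle 50% spanned 0.71 over the range from 700 to below 2000 and 0.66 over that from 2000 to below 4000.

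All 33 differences exceeded 2 standard errors over spots. These errors, from 0.0059 to 0.11, hold the noise between spots and not that between mice or arrays. They also leave out the spread between probes of a miRNA and the choice of scaling. For miR-5126, with the smallest error, the probes gave -0.46 and -0.26.

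The arrays as such were alike in quality, with 19.6% and 21.1% of 49880 miRNA spots well above background and none saturated. The labelled tissue showed its defining miR-140 on both arrays, at 1046 in the control and 2713 in the knockout for miR-140-5p, a difference of 1.38 ± 0.01, and 3 of 4 measured chondrocyte markers were above 0 (-0.03 to 1.71), while miR-675-5p was above background on neither array. Their summed intensity was 2322 in the control and 5268 in the knockout. Markers of other cells moved too. Of 4 skeletal muscle markers 3 were below 0 (-0.996 to 0.05, summed intensity 1410 and 737) and of 4 leukocyte markers 3 (-1.17 to 0.64, summed intensity 9633 and 4454). The 2 measured of 3 red cell markers were above 0 (0.55 and 1.51, summed intensity 2340 and 3472), as were both endothelial markers (0.14 and 0.35, summed intensity 1555 and 1977). The third red cell marker, miR-486-5p, had no probe under that name on the arrays. The part of muscle and blood cells in the low late-numbered signals was not tested. In a tissue sample, fewer cells of a type and less RNA per cell cannot be told apart. No probe reads Tsc1 mRNA, so the genotype labels were not checked.

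Of the 4 members past 2-fold, miR-5115 differed most. Its scaled intensity was 62.8 in the control and 18.0 in the knockout, a log2 difference of -1.81 ± 0.09, or 3.5-fold lower. The knockout value lay near the lowest signal well above background on that array, 16.9, and only 52.6% of its spots there were marked as above background, so miR-5115 was barely measured on that side. A shorter second probe for miR-5115 had 40% of its spots marked on the control array and none on the knockout array.

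miR-6392-3p, from within the span of Pnpla3, a gene of lipid metabolism, had 56.4 in the control and 20.6 in the knockout, a difference of -1.45 ± 0.10, or 2.74-fold lower. It too was dim on the knockout array, with 75% of the spots of its measured probe marked there.

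miR-6401 was well measured on both sides. Its intensity was 238.0 in the control and 100.3 in the knockout, a difference of -1.25 ± 0.03, or 2.37-fold lower, and every usable spot of its 2 probes was marked on both arrays. The probes gave -1.28 and -1.21. RefSeq lists it at chr7:139779085-139779106 on the plus strand, outside the span of any other listed gene.

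miR-5121 had 69.5 in the control and 30.4 in the knockout, a difference of -1.19 ± 0.03, or 2.28-fold lower. Its 2 probes gave -1.21 and -1.17, with every usable spot marked. It lies at chr7:45126925-45126945 on the minus strand, inside the spans of Rpl13a, a ribosomal protein gene, and of Snord33, a small nucleolar RNA that guides methylation of ribosomal RNA. Whether its signal came from a processed miRNA or from another RNA of this place was not tested.

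These 4 kept a lower signal on the knockout array under every alternative that measured them. They passed the 2-fold threshold less often. With no scaling miR-5115 was at -1.40 and miR-6392-3p at -1.04, while miR-6401 was at -0.84 and miR-5121 at -0.78. After normexp background correction and then quantile normalization they were at -0.52, -0.41, -0.75 and -0.40. The correction adds an offset to the intensities, which shrinks dim differences, and the shares of both steps were not set apart.

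The next 15 members lay between -1 and -0.5, and all 15 stayed below 0 under every alternative that measured them. The 3 whose values came nearest to background were miR-6238, miR-6236 and miR-6380. miR-6238 had 33.2 in the control and 20.5 in the knockout, a difference of -0.70 ± 0.11. miR-6236 had 33.9 and 20.9, also a difference of -0.70 ± 0.09, and miR-6380 had 37.1 and 21.5, a difference of -0.79 ± 0.06. In each the control lies above the knockout by more than the error over spots, and each rests on 1 probe.

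Of the others in the band, miR-5128, miR-5622-3p, miR-5118 and miR-5119 lay further above background and gave like differences from 2 or 3 probes each. miR-5128, from within the span of Strbp, had 360.9 in the control and 222.0 in the knockout, a difference of -0.70 ± 0.03. miR-5622-3p, from within the span of the spindle assembly factor gene Tpx2, had 309.4 and 193.7, a difference of -0.68 ± 0.01. miR-5118 was read by 3 probes that gave between -0.67 and -0.53, with a mean of -0.58 ± 0.03. The 3 probes of miR-5119, which lies within the span of Cdk12, a kinase of transcription elongation, gave between -0.85 and -0.62, with a mean of -0.71 ± 0.03. The remaining members of the band were miR-5110 (-0.82), miR-6378 (-0.71), miR-5117-3p (-0.70), miR-5112 (-0.65), miR-5130 (-0.59), miR-6360 (-0.58), miR-6418-5p (-0.58) and miR-5097 (-0.54). Where RefSeq gave a position, they lay within the spans of Bcas3 (miR-5110), Kctd12 (miR-5130) and the G protein gene Gnb2 (miR-6418-5p). Of these remaining members, miR-5110, miR-6378, miR-5117-3p, miR-5130 and miR-6418-5p each rested on 1 probe, and miR-5110 was dim on the knockout array, at 25.2.

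A further 12 members lay between -0.5 and 0, and the sign of 11 of them depended on the scaling. miR-5105 was the exception, at -0.48 ± 0.01 and below 0 under every alternative. Several members of this band had high signals and small errors. miR-6366 had 44307 in the control and 39070 in the knockout, a difference of -0.18 ± 0.01, which became 0.23 with no scaling. miR-5109 had 6552 and 5470, a difference of -0.26 ± 0.01, and miR-6243 had 6234 and 4635, a difference of -0.43 ± 0.01. With no scaling these were at 0.15 and -0.02, and in the deposited log2 values at 0.14 and 0. For miR-5126, whose mature sequence is built of G and C alone and which lies within the span of Dner, intensities were 1946 and 1518, a difference of -0.36 ± 0.01, which ran from -0.81 with quantile normalization to 0.08 with the percentile taken over all probes. Signals of different probes cannot be set against each other, so these intensities do not rank the miRNAs by abundance.

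The other members of this band were miR-5117-5p at -0.39, miR-5099 at -0.31, miR-6368 at -0.28, miR-6394 at -0.22, miR-6385 at -0.20, miR-6538 at -0.14 and miR-5107-5p at -0.10, and all 7 turned positive with no scaling. miR-6385 lies within the span of Pml, which organises nuclear bodies, and miR-6538 within that of the ubiquitin ligase gene Rnf144a. For miR-5107-5p the 2 probes differed in sign, at -0.23 and 0.02. In no other of the 19 members with more than 1 measured probe did these probes differ in sign. The widest gap between measured probes of a member was 0.25. Probes left out, as not well above background on both arrays, lay further away in some members, such as miR-5130 at -0.22 against -0.59. In others they lay close, such as miR-6380 at -0.82 against -0.79. A second probe of miR-6394, well above background only in the knockout sample and so left out of its value, was at 0.20.

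With this scaling only miR-5100 and miR-5113 had more signal in the knockout sample, and with no scaling 12 members did. miR-5100, at chr11:60728698-60728718 on the plus strand within the span of Mief2, a gene of mitochondrial fission, had 1423 in the control and 1868 in the knockout, a difference of 0.39 ± 0.02, or 1.31-fold higher. Its probes gave 0.47 and 0.31, but in the deposited log2 values it was at -0.16, the 1 alternative in which it was lower. miR-5113, within the span of Tnrc6b, which encodes a partner of Argonaute in silencing, had 37.9 in the control and 46.2 in the knockout, a difference of 0.28 ± 0.04, from 1 probe. It was the only member above 0 under all 11 alternatives, from 0.14 with dim probes kept at a floor to 0.92 in the deposited log2 values.

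**Figure D2:**
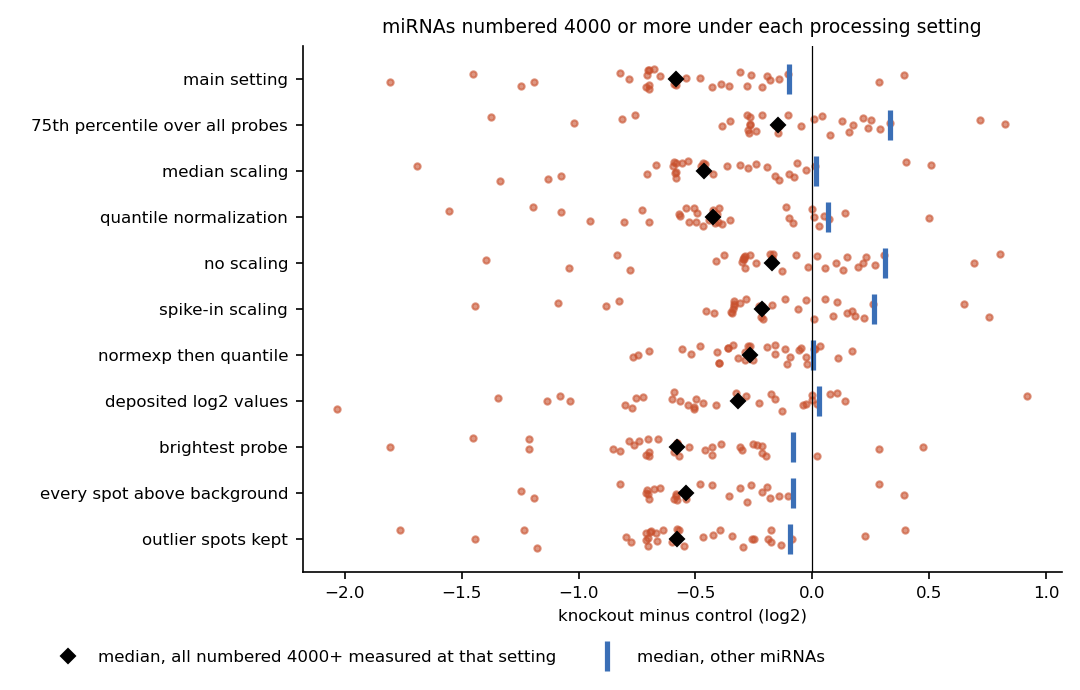
Log2 difference, knockout minus control, of the late-numbered miRNAs measured at the main setting (points) under it and 10 alternatives, with the median over all late-numbered miRNAs that each setting measured (diamond) and the median of the other miRNAs (bar). Scalings that add a constant move all points alike. Quantile normalization, alone or after normexp, and the deposited values move members by unequal amounts. In each of these 11 settings the diamond lies below the bar. The alternative that keeps dim probes at a floor, where both medians are 0, is not drawn.

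Across all 12 settings, the main one included, 20 of the 33 members were below 0 wherever they were measured, 1 was above 0 and 12 had either sign, depending on the setting. The 20 were the 4 at least 2-fold lower, the 15 of the next band and miR-5105.

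Of the 177 members 1 was well above background in the control alone and 1 in the knockout alone. In the same order the counts were 3 and 17 of 261 miRNAs numbered below 200, and 10 and 16 of 439 from 200 to below 700. They were 7 and 2 of 200 from 700 to below 2000, and 3 and 3 of 150 from 2000 to below 4000. miR-5132-5p was well above background in the control, with 55.6% of the spots of the probe marked, and not in the knockout, with 45%. After scaling its signal was 25.6 in the control and 17.1 in the knockout, or 1.5-fold higher in the control. The knockout signal lay above the lowest one well above background there, 16.9, so this is the plain ratio. Without scaling the log2 signals were 4.47 in the control and 4.30 in the knockout, and in the deposited log2 values 3.21 and 2.90. miR-6370 passed in the knockout sample alone, with scaled intensities of 20.2 in the control and 24.1 in the knockout, and no fold is given for it because the knockout signal lay below the lowest one well above background on the control array, 24.9.

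**Figure D3:**
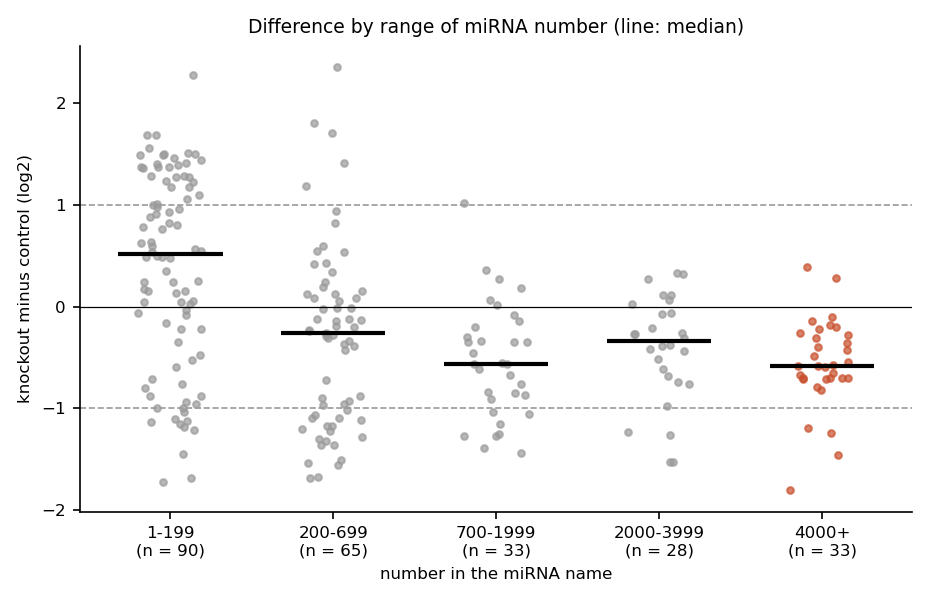
Log2 difference, knockout minus control, of miRNAs measured on both arrays by the range of the number in their name, with a line at each median and dashed lines at a 2-fold difference in each direction. The medians are 0.52, -0.25, -0.56, -0.34 and -0.58 from the lowest to the highest range, of which the -0.25 and -0.34 become 0.16 and 0.07 with no scaling, and the middle 50% of the late-numbered miRNAs spans 0.43, the narrowest of the 5 ranges.

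With this scaling 3 other ranges of numbers had negative medians too, of which 2 turned positive with no scaling. The median log2 difference was 0.52 over the 90 measured miRNAs numbered below 200, -0.25 over the 65 from 200 to below 700, -0.56 over the 33 from 700 to below 2000, -0.34 over the 28 from 2000 to below 4000 and -0.58 over the 33 members. Past 2-fold on the higher side in the knockout sample were 30, 5, 1, 0 and 0 miRNAs of these ranges, and on the lower side 10, 19, 8, 4 and 4. With no scaling the medians, in the same order, were 0.93, 0.16, -0.15, 0.07 and -0.17. The counts were then 42, 8, 1, 0 and 0 on the higher side and 3, 5, 1, 2 and 2 on the lower side. In the deposited log2 values the range from 700 to below 2000 had a lower median than the members, -0.51 against -0.32. On either side of the number 4000, miR-3963 and miR-3968 were at -0.27 ± 0.01 and -0.27 ± 0.03, and miR-5097 and miR-5099 at -0.54 ± 0.04 and -0.31 ± 0.04. No test of a difference between ranges was made, as there is 1 array a group.

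The members' median was the lower one in both classes of signal level. Among miRNAs with a scaled intensity under 100, averaged over both arrays on the log2 scale, the median difference was -0.67 over 18 members and -0.22 over 109 other miRNAs. Among those at 100 or more it was -0.48 over 15 members and 0.24 over 115 others. Of the 4 members at least 2-fold lower, 3 were in the dimmer class.

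**Figure D4:**
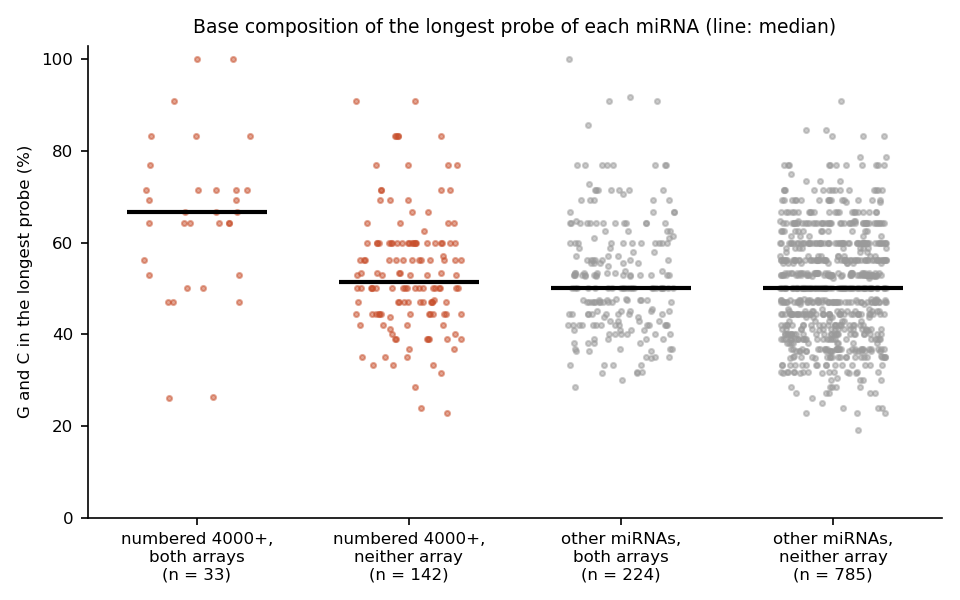
Share of G and C (percent) in the longest probe of each miRNA, for late-numbered and other miRNAs well above background on both arrays or on neither, with a line at each median. The medians are 66.7%, 51.5%, 50% and 50% from left to right.

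The late-numbered miRNAs that gave signal were rich in G and C. The longest probe of the 33 measured members had a median G and C share of 66.7%, against 51.5% for the 142 members on neither array, and 69.7% of the measured against 33.1% of the unmeasured members had a share of at least 60%. Among the other miRNAs the median was 50% for both the 224 measured and the 785 above background on neither array. These pool all lower numbers, and the ranges from 700 to below 4000 were not set apart. Measured miRNAs there also reached high shares, such as 76.9% for miR-1982-5p and 100% for miR-2861. Others there were lower, such as miR-1949 and miR-3069-3p at 44.4%. A high share is therefore not shown to be particular to the members. miR-5126 and miR-6538 had probes of G and C alone, and at the other end miR-5117-3p had a share of 26.3% and miR-5117-5p of 26.1%. The probes of measured members were short, with a median length of 14 bases against 17 for the other measured miRNAs. Split at 60%, the median difference was -0.58 over 23 members at or above it and -0.64 over 10 below it, while over the other miRNAs it was -0.30 for 63 and 0.05 for 161. The part of base composition in the signal of these probes was not tested.

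The probes read the end of the miRNA that does not carry the seed. All 35 measured probes of members with a RefSeq sequence were complementary to a stretch ending at the last base, starting between base 5 and base 13, and 16 of them began after base 8. None covered the whole seed. No measured probe of these or of the other members was complementary to a different mature mouse miRNA in RefSeq, over 1679 names. Longer RNAs were not searched.

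Of the members with a known sequence, 39 share their seed with at least 1 other mouse miRNA. For 19 the partner is a miRNA numbered below 700, yet only miR-6394 of these 19 was measured on both arrays. It has the seed of the miR-125 family, as the sequences show.
miR-6394: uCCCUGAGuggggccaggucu
miR-125a-5p: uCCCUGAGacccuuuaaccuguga
miR-125b-5p: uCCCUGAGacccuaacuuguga
miR-6394, from within the span of Tenm4, had 36.0 in the control and 31.0 in the knockout, a difference of -0.22 ± 0.05. By contrast miR-125a-5p was at 1.49 ± 0.04 and miR-125b-5p at 1.18 ± 0.01. miR-6367, with the same seed, was above background on neither array.

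The other late seed partners of early miRNAs were not measured on both arrays. miR-6383 shares its seed with miR-17-5p, and miR-6342, miR-6353 and miR-6419 share theirs with miR-16-5p. miR-5124b, miR-6369, miR-6410 and miR-6413 share theirs with miR-24-3p, and miR-5129-3p shares its seed with the cartilage-linked miR-455-5p. All of these late-numbered miRNAs were above background on neither array, although miR-17-5p, miR-16-5p, miR-24-3p and miR-455-5p were measured on both. miR-6368 shares a seed with miR-6404 and miR-6405, which were above background on neither array.

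Of 23 late-numbered hairpins with both arms on the array, miR-5117 alone had both measured, at -0.70 ± 0.06 for miR-5117-3p and -0.39 ± 0.07 for miR-5117-5p. Each arm rested on 1 probe. miR-5117-5p was dim, at 30.1 in the control and 22.9 in the knockout, and was at 0.02 with no scaling. In 4 hairpins 1 arm was measured (miR-5107-5p, miR-5622-3p, miR-6392-3p and miR-6418-5p), and in 18 neither was measured on both arrays. RefSeq placed 14 of the 21 measured members with a position within the span of a protein-coding gene, or 66.7%, and 77 of 122 members above background on neither array, or 63.1%. The table used gives spans alone, so exon, intron and the strand of the surrounding gene are not stated.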

How the data were processed

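Agilent Feature Extraction 10.7, named in the submitters' processing notes, gave each spot of the deposited scanner files a background-subtracted intensity, a raw intensity and a local background, unscaled between arrays per the file headers. The deposited log2 value table lists 1 value per miRNA. How it was made, including any centring or quantile step, is not stated. Its column medians, -3.26 for control and -3.32 for the knockout, are also its floors. Both column means are -0.74 and both highest values are 16.39. Single values recur across columns, such as 10.90 for miR-5126 in the control and for miR-5100 in the knockout. Whether a quantile step gave this was not tested, so the deposited values are not taken as independent of the quantile setting. Its differences ran in the direction of the scanner signals (Pearson's r of 0.96 across 257 miRNAs, which are not independent replicates).

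Outlier spots were dropped, log2 intensities were averaged over the 8 to 20 usable spots of a probe, arrays were scaled to the 75th percentile, and a miRNA was the mean of its probes well above background on both arrays. A probe below background on 1 array gave a bound, its bright signal divided by its dim one or by the dim array's lowest signal well above background, whichever was larger. The number of arrays limits the precision, and no p-value was computed. An absolute log2 difference of 1 served as the threshold for counts. Every member measured on both arrays was named, with those on 1 array that had a bound above 1. miR-6370, miR-6402 and other unmeasured members were chosen after their values were seen. The members, lists and ranges were chosen with earlier results of these data known. Steps were run on simulated data, where every simulated direction was recovered and the scaling shifted all differences by a small common offset. This run checked the working of the code alone. The directions of the members, 12 of 33 of which had either sign depending on the setting, were not tested by it. Python 3.11.15, pandas 2.3.3 and limma 3.58.1 (normexp, offset 50, followed by quantile normalization) were used.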

Additional observations from a re-analysis of the deposited data

How the results depend on the processing

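Across 11 alternatives the count of 4 members at least 2-fold lower became 2 where the percentile came from all probes, without scaling and with spike-ins, 2 with every spot required above background (27 members left) and 0 after normexp. It was 3 with quantile normalization and with the floor, 5 in the deposited values, where miR-6236 reached -1.08, and 4 with the median, the brightest probe or outlier spots kept. No member was at least 2-fold higher under any of them. The median difference, -0.58, became -0.15 with the percentile from all probes, -0.47 with the median, -0.43 with quantile normalization, -0.17 with no scaling, -0.22 with spike-ins, -0.27 after normexp, -0.32 in the deposited log2 values over 38 members, -0.54 with every spot required and 0 with a floor, where 142 of 177 members sit at the floor on both arrays. The distance to the median of the other miRNAs, a measure added after the data were seen, moved from -0.48 to -0.27 after normexp, -0.35 in the deposited values and 0 with the floor. The median of all 257 miRNAs shifted by 0.43, 0.12, 0.20, 0.41, 0.36 and 0.18 with the first 6 of these, from the percentile over all probes to normexp. Requiring every usable spot or 1 usable spot above background left 27 or 37 members measured on both arrays, against 33. Of the 33 members 12 passed 0 under some alternative. The cause was not tested. Low signal limits miR-5115, miR-6392-3p, miR-6236, miR-6238, miR-6380 and miR-5117-5p. No paired analysis was possible because each group has 1 array.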

Other observations

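A further 7 late-numbered miRNAs lay above the floor of at least 1 column of the deposited log2 values, with no measurement on both arrays by the spot rule. Of these, 5 were above it in both columns: miR-5131 at 2.73 for control and 2.83 for the knockout, miR-5132-5p at 3.21 and 2.90, miR-6354 at 2.90 and 2.69, miR-6370 at 3.92 and 4.35, and miR-6402 at 2.66 and 2.90. miR-5620-3p and miR-6405 were above it in the control column alone, at 2.69 and 2.89.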
